A study of Mus musculus with 3 samples.

Results

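The 8 genes described here are the Kruppel-like factors Klf2, Klf3, Klf4, Klf5, Klf6, Klf9, Klf10 and Klf13, out of 52636 genes counted in single mouse embryonic stem (ES) cells before and after loss of cohesin. They were chosen by gene family and by results of the same comparison already known for these data. Klf4 and Klf5 had passed a test in it, so the members' values after auxin are given as a description. Calls and counts of low p given for them below are no test of them. The cells were JM8.N4 ES cells of the C57BL/6N strain edited so that the cohesin subunit RAD21 is fused to a degron, through which the cell breaks RAD21 down once the plant hormone auxin is added. Control cells had the same genotype and got no auxin, and treated cells got auxin (IAA) at 500 µM for 6 h. All were grown without feeders on gelatin in serum with LIF and the 2i inhibitors PD0325901 and CHIR99021. The degron line is 1 engineered background, and no parental line without the degron was analysed here, so an action of auxin itself cannot be told apart from loss of RAD21. Smart-SCRB, a plate-based method that tags every captured transcript with a unique molecular identifier (UMI), was carried out in 3 replicates, each with control plates and auxin plates.

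Kruppel-like factors are transcription factors with a set of C2H2 zinc fingers at the carboxyl end, through which they bind GC-rich DNA such as CACCC and GC boxes. The fingers are alike across the family, so members can bind the same sites, while the rest of the protein differs and recruits activators or repressors. In mouse ES cells Klf2, Klf4 and Klf5 support self-renewal. Klf4 is a known target of LIF and STAT3 signalling and 1 of the classical reprogramming factors, Klf2 is linked to the state kept by the 2i inhibitors, and Klf5 is needed for the early blastocyst lineages. Klf3 is best known as a repressor that works through CtBP, Klf9 and Klf13 belong to a subgroup that binds Sin3A, Klf10 is an early gene of TGF-beta signalling, and Klf6 is broadly expressed.

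After the filter on cells, which kept those with more than 2600 detected genes, replicate 1 had 168 control and 169 auxin-treated cells on 2 plates each. Replicate 2 gave 371 and 290 cells from 4 plates each. The settled plates of replicate 3, 1 per condition, gave 85 and 84 cells, since a further 2 plates have a condition on which the deposited annotation and the source values of the study disagree, and they were left out. In replicate 1 the annotation gives RAD21 positive and negative, which was read here as control and auxin. The median UMI count per cell on a plate lay between 72317 and 209426, and the 288 well barcodes were each used on more than 1 plate. Replicate 2 stood apart from the others: its ES cell markers Nanog and Esrrb were at 58.6 and 17.7 CPM (UMIs per 1000000 summed UMIs) in control cells, against 496 and 66.8 in replicate 1. Utf1 of the same list went the other way, with 182 CPM in control cells of replicate 2 and 29.4 and 52.1 CPM in those of replicates 1 and 3, and after auxin it was at 9.20, 174 and 12.0 CPM in replicates 1, 2 and 3. Sox2, another defining marker, was listed at 0 in replicates 2 and 3 and at 155 CPM in control cells of replicate 1. Pou5f1 was at 273 CPM in control cells of replicate 1 and at 8.40 and 12.5 CPM in those of replicates 2 and 3. Whether the replicates were counted with the same annotation is not given in the sources used here, so a difference in counting cannot be told apart from one in the cells for these genes. For this reason levels are compared only between the conditions of a replicate. Marker lists of primitive endoderm, trophectoderm, fibroblasts and 2-cell-like cells summed to at most 33.8 CPM in any replicate and condition. The list for 2-cell-like cells went from 0.388 to 15.0 CPM after auxin in replicate 1. It went from 0 to 0.0793 CPM in replicate 2 and from 0.165 to 3.89 in replicate 3, while the list for trophectoderm went from 33.8 to 11.3, 4.67 to 4.82 and 12.7 to 9.42 CPM in replicates 1, 2 and 3. The fibroblast list went from 12.3 to 24.1 CPM in replicate 2, of which Dcn made up 10.6 and 22.6 CPM, from 2.16 to 1.51 CPM in replicate 1 and from 7.75 to 5.08 CPM in replicate 3. The summed ES cell markers went from 3910 to 2417 CPM in replicate 2, from 9293 to 8667 CPM in replicate 1 and from 7206 to 7730 CPM in replicate 3. Most of each sum was Dppa5a, which went from 3560 to 2118 CPM in replicate 2. The part of these lists in the values below was not tested. The share of UMIs from mitochondrial genes was between 1.83% and 4.87% on the control plates and between 1.85% and 4.66% on the auxin plates.

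Klf4 (ENSMUSG00000003032, chr4:55527143-55532466 of mm10, minus strand) was lower after auxin in each replicate on the plates with a settled condition. In replicate 1 its level was 129 and 151 CPM on the control plates and 74.1 and 53.8 CPM on the auxin plates. In replicate 3 it was 72.7 CPM on the control plate and 27.5 CPM on the auxin plate. In both of these replicates every auxin plate lay below every control plate. In replicate 2 Klf4 was close to absent in either condition. Its control plates were at 2.79, 4.22, 1.96 and 2.04 CPM, which rests on 34, 52, 24 and 25 UMIs. Its auxin plates were at 0.0831, 3.65, 0.326 and 0.589 CPM, from 1, 46, 4 and 8 UMIs, so that auxin plate 2 overlapped with the control plates and the other 3 lay below them. On this plate 27 of the 46 UMIs came from 1 cell. The log2 ratio of the summed counts, auxin over control, was -1.12, -1.23 and -1.40 in replicates 1, 2 and 3, with a mean of -1.25 ± 0.14 (SD, n = 3). This mean is a level of 0.419 of the control. Without auxin plate 2 the ratio in replicate 2 was -3.00, from 13 UMIs in 218 cells, and the mean over replicates was -1.84. The difference in replicate 3 rests on leaving out its 2 disputed plates or placing them by the annotation. Placed by the source values of the study, they gave Klf4 and Klf5 a log2 ratio of mean UMIs at equal depth of -0.04 and -0.07 in that replicate, and the mean log2 ratio of CPM over the 3 replicates became -0.80 ± 0.66 and -0.81 ± 0.74 (SD, n = 3).

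Klf5 (ENSMUSG00000005148, chr14:99298691-99315036, plus strand) was lower after auxin by about the same factor, and from a level that could be measured in all 3 replicates. In replicate 1 it was at 292 and 312 CPM on the control plates and at 168 and 137 CPM on the auxin plates. In replicate 2 the control plates had 95.5, 56.6, 43.8 and 59.6 CPM and the auxin plates 15.6, 39.0, 17.4 and 21.0 CPM. Here too auxin plate 2 was the highest of its group, but it stayed below all control plates. In replicate 3 the level was 304 CPM in control and 127 CPM after auxin. The log2 ratios were -0.98, -1.45 and -1.26, with a mean of -1.23 ± 0.24 (SD, n = 3), or 0.426 of the control level. Klf5 was the member whose auxin plates lay below all control plates in each of the 3 replicates. Such a gap was found in 0.771% of the 17514 genes tested, a share given only as the background since the members were picked on this comparison.

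Klf2 (ENSMUSG00000055148, chr8:72319033-72321656, plus strand), the other factor of the self-renewal group, was less even. In replicate 1 the control plates were at 281 and 682 CPM and the auxin plates at 347 and 555 CPM, inside the range of the controls. In replicate 2 it was at 291, 161, 140 and 166 CPM in control and at 102, 61.7, 112 and 107 CPM after auxin, with no overlap. In replicate 3 it was at 491 CPM in control and 410 CPM after auxin. The log2 ratios of -0.15, -0.99 and -0.26 had a mean of -0.47 ± 0.45 (SD, n = 3), so the spread between replicates was about as large as the mean. Without replicate 2 the mean was -0.21.

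**Figure D1:**
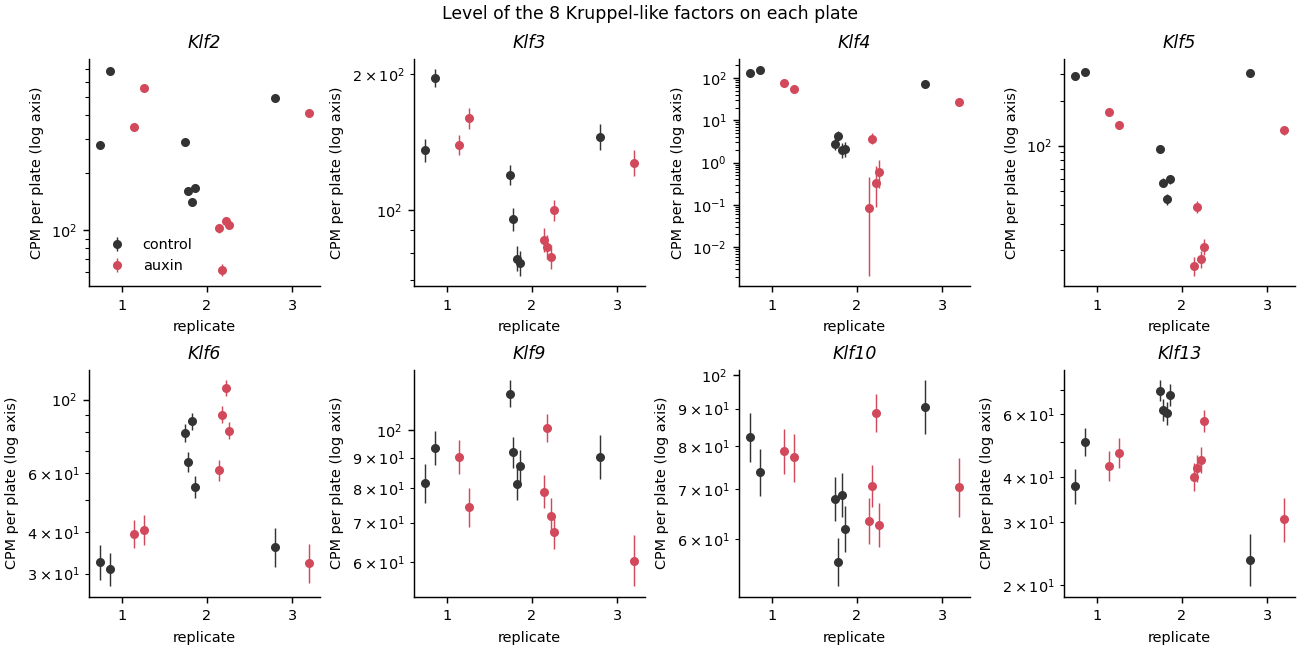
Level of each Kruppel-like factor on each plate with a settled condition, in CPM on a log axis that differs between panels, for replicates 1 to 3 (control dark, auxin red). Bars are 95% Poisson intervals, which cover counting error only. The red points of Klf5 lie below the dark points in each replicate, those of Klf4 do so except for auxin plate 2 of replicate 2 at 3.65 CPM, and those of the other members overlap with the controls in at least 1 replicate.

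The other 5 members had smaller ratios. Klf9 (ENSMUSG00000033863, chr19:23141226-23168134, plus strand) was at 87.9, 93.9 and 90.4 CPM in the control cells of replicates 1, 2 and 3 and at 82.7, 79.6 and 60.4 CPM after auxin. Its plates overlapped in replicates 1 and 2, and its log2 ratio was -0.30 ± 0.25 (SD, n = 3). The mean was -0.16 without replicate 3 and -0.20 with the disputed plates placed by the source values. Klf3 (ENSMUSG00000029178, chr5:64803388-64832901, plus strand) had the narrowest spread of ratios, -0.17, -0.08 and -0.19, with a mean of -0.15 ± 0.06 (SD, n = 3). With the disputed plates placed by the source values its mean was -0.07 ± 0.10 (SD, n = 3). Its level was 168, 92.2 and 145 CPM in control and 149, 87.0 and 127 CPM after auxin, and its plates overlapped in replicates 1 and 2.

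Klf6, Klf10 and Klf13 went in different directions between replicates. Klf6 (ENSMUSG00000000078, chr13:5861482-5870394, plus strand) was at 31.6, 71.2 and 35.9 CPM in control and at 40.0, 85.1 and 32.2 CPM after auxin. Its log2 ratio was 0.34, 0.26 and -0.16, a mean of 0.15 ± 0.27 (SD, n = 3), and in replicate 1 both auxin plates (39.5 and 40.6 CPM) lay above both control plates (32.5 and 30.9 CPM). Klf10 (ENSMUSG00000037465, chr15:38291463-38300706, minus strand) was at 77.8, 63.6 and 90.5 CPM in control and at 78.1, 71.3 and 70.4 CPM after auxin, a mean log2 ratio of -0.06 ± 0.27 (SD, n = 3). Klf13 (ENSMUSG00000052040, chr7:63886351-63938915, minus strand) was at 44.3, 64.8 and 23.6 CPM in control and at 44.7, 46.4 and 30.5 CPM after auxin. In replicate 2 all 4 auxin plates of Klf13, from 40.1 to 57.2 CPM, lay below its control plates, from 60.2 to 69.6 CPM, while in replicate 3 the auxin plate was the higher one. Its mean ratio was -0.03 ± 0.43 (SD, n = 3). For these members the mean was smaller than the spread between replicates, which leaves room for differences of this size in either direction.

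**Figure D2:**
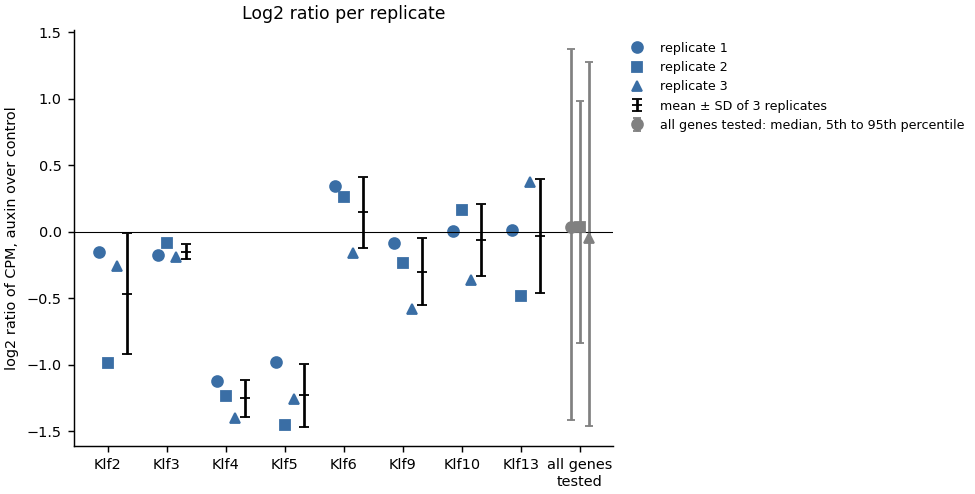
Log2 ratio of CPM, auxin over control, of each member in replicates 1 to 3 (symbols) with the mean ± SD of 3 replicates (black). The grey points and bars give the median and the 5th to 95th percentile of all genes tested in each replicate. Klf4 and Klf5 lie between -0.98 and -1.45 in all replicates, and the means of the other members lie between -0.47 and 0.15.

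In counts, 5 of the 8 members (Klf2, Klf3, Klf4, Klf5 and Klf9) were lower after auxin in all 3 replicates, as were 13.7% of the genes tested. Of the 8, 0 were higher in all 3, against 15.6% of the genes tested. The median log2 ratio of all genes tested was 0.03, 0.04 and -0.04 in replicates 1, 2 and 3. Their 5th percentile was -1.42, -0.84 and -1.46. Klf4 and Klf5 lay above it in replicates 1 and 3 and below it in replicate 2. edgeR's quasi-likelihood test without a replicate term called 0 members and 0 genes of 17514 (0%), while 33 genes had an unadjusted p under 0.05, among them 0 members (with the block 1036 genes or 5.92% had one, among them the members Klf2, Klf4, Klf5 and Klf9, all 4 lower), and DESeq2 without the block gave 0 calls too. Sums of the same replicate deviated together. With the replicate as a block edgeR called Klf4 and Klf5 as lower, which were all of its lower calls (0.0114% of genes tested). DESeq2 with the block called the same 2 members (lower calls 0.251% of genes tested, not all of which it gave an adjusted p). These calls are what the members were picked on. The counts of members in this paragraph come from the same comparison, so none of them is a test of the members against all genes. The blocked fit gave a log2 fold change of -1.26 (SE 0.13) for Klf4 and -1.24 (SE 0.11) for Klf5. With the 2 disputed plates placed by the source values, 0 genes passed in the blocked fit, and 700 had an unadjusted p under 0.05. Without replicate 3 it called 0 members, and without replicate 1 only Klf5.

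Depth differed between the conditions, so the share of cells that held a transcript was compared at equal depth. For each cell with at least 20000 UMIs, the chance of at least 1 UMI of the gene in a draw of 20000 was computed and averaged over cells. A lower level shows in this measure both as fewer positive cells and as fewer UMIs in each positive cell. As a reference, the share was also computed for the case that every cell of the higher condition kept the same fraction of its transcripts. A share below this reference is one with more cells without the transcript than an equal loss would leave.

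For Klf4 the share of positive cells was 72.4% in control and 50.4% after auxin in replicate 1, where an equal loss would give 57.4%. In replicate 3 it was 52.8% and 28.8%, against 35.0% for an equal loss. In replicate 2 it was 3.49% and 1.72%, against 2.33%. The mean difference was -15.9 ± 12.3 percentage points (SD, n = 3), of which the small value of replicate 2 sets the spread. In positive cells of replicate 1 the mean was 4.11 UMIs in control and 2.76 after auxin. Replicate 3 had 2.83 UMIs in control and 2.14 after auxin. For replicate 2 the values were 1.85 and 1.94. With all UMIs the level per positive cell there was 3.78, 6.5, 8 and 4.17 on the control plates. On auxin plates 1, 2, 3 and 4 it was 1, 11.5, 2 and 2 UMIs. The value after auxin thus rests on auxin plate 2, and whether the level per positive cell was lower in replicate 2 cannot be told. Both the share and the level per positive cell were lower after auxin in replicates 1 and 3. Of the log2 ratio, 47.6% and 68.5% lay in the share of cells in these replicates, a split that moved with depth. It was 33.4% and 59.7% in a draw of 40000 UMIs and 22.4% and 44.7% with all UMIs of the cells, where the level per positive cell was the larger part in both. The mean log2 ratio of UMIs per positive cell was -0.30 ± 0.34 (SD, n = 3), with -0.16 without replicate 1 and -0.49 without replicate 2. With the disputed plates placed by the source values, the share in replicate 3 was 43.1% in control and 41.6% after auxin. The log2 ratio of UMIs per positive cell in replicate 3 was then 0.01.

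For Klf5 the share was 87.9%, 35.5% and 86.3% in the control cells of replicates 1, 2 and 3 and 79.2%, 16.1% and 71.2% after auxin. An equal loss would give 81.5%, 23.8% and 76.1%. The measured share minus that of an equal loss was -2.39, -7.63 and -4.90 points. The UMIs per positive cell went from 6.60 to 4.09 in replicate 1, from 3.90 to 3.14 in replicate 2 and from 7.12 to 3.47 in replicate 3. In replicates 1 and 3, where most control cells held Klf5, a minor part of the log2 ratio lay in the share of cells (21.1% in replicate 3) and the larger part in the level per positive cell. In a draw of 40000 UMIs and with all UMIs the share of cells made up 12.6% and 11.3% in replicate 3. For replicate 1 it was 9.08% in a draw of 40000 and 0.954% with all UMIs, so that the size of this part depends on depth while the level per positive cell stayed the larger one. In replicate 2, where fewer cells held it, the share made up 78.4%, and 71.7% and 89.2% in these alternatives. The mean difference in share over replicates was -14.4 ± 5.34 points and the mean log2 ratio of UMIs per positive cell -0.68 ± 0.36 (SD, n = 3 for both). With the disputed plates placed by the source values, the share in replicate 3 was 77.0% in control and 80.4% after auxin. The log2 ratio of UMIs per positive cell in replicate 3 was then -0.13.

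**Figure D3:**
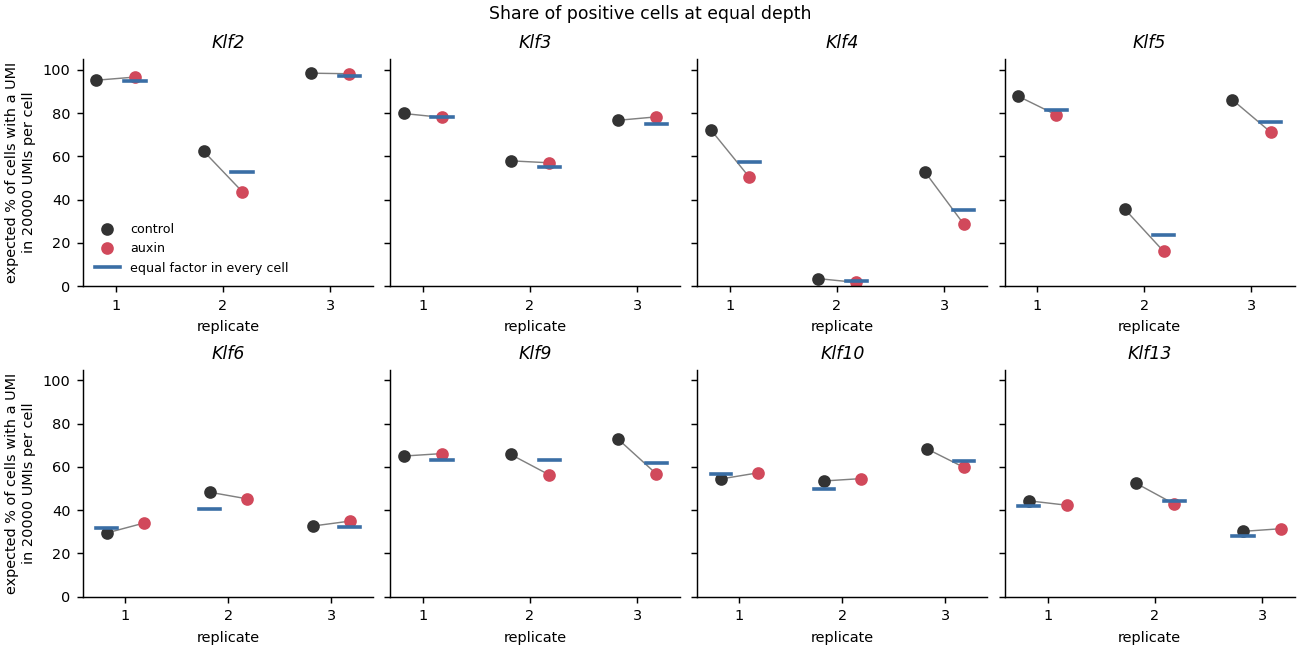
Expected percent of cells with at least 1 UMI of the gene in a draw of 20000 UMIs per cell, in control (dark) and auxin-treated cells (red) of each replicate. The blue bar, drawn at the condition with the lower mean, is the share if every cell of the other condition had kept the same fraction of its transcripts. Klf4 and Klf5 lie below this bar after auxin in each replicate, with differences between -0.608 and -7.63 points.

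Klf2 was present in nearly all cells of replicates 1 and 3, where its share was 95.2% and 98.5% in control and 96.7% and 98.2% after auxin. Its UMIs per positive cell were 10.3 in control and 9.24 after auxin in replicate 1, while replicate 3 had 10.4 and 8.08. In replicate 2 the share went from 62.4% to 43.8%, below the 52.6% of an equal loss, and the UMIs per positive cell from 6.10 to 4.36. Among the members with small ratios, the change of the share was -0.38 ± 1.77 points for Klf3, 1.27 ± 3.90 for Klf6, -1.56 ± 6.15 for Klf10 and -3.51 ± 5.61 for Klf13 (SD, n = 3 for each). Klf9 had -8.17 ± 8.75 points, from 65.0% to 66.2% in replicate 1, from 65.8% to 56.3% in replicate 2 and from 73.0% to 56.8% in replicate 3.

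At the upper end of the levels in single cells, fewer auxin-treated cells were found in replicates 1 and 3 for Klf4 and in all 3 for Klf5. In replicate 1, 53.0% of control cells (95% exact binomial interval 45.1% to 60.7%) had at least 100 CPM of Klf4, against 23.1% (17.0% to 30.2%) after auxin. In replicate 3 these shares were 28.2% (19.0% to 39.0%) and 8.33% (3.42% to 16.4%). In replicate 2 they were 1.08% (0.295% to 2.74%) and 0.690% (0.0836% to 2.47%), with intervals that overlapped. At 200 CPM, Klf5 was reached by 60.1%, 11.1% and 64.7% of the control cells of replicates 1, 2 and 3 and by 29.6%, 3.10% and 19.0% of the auxin-treated cells. Apart from Klf4 in replicate 2, the intervals of the 2 conditions did not overlap at these levels, but they cover the counting of cells on the plates and not the spread between cultures. They overlapped at some higher levels, for example for Klf4 at 200 CPM in replicate 3 (10.6% and 2.38% of cells) and for Klf5 at 500 CPM in replicates 1 (12.5% and 4.73%) and 2 (1.62% and 1.03%). In replicate 2, 10 of the 371 control cells held 75.6% of the Klf4 UMIs, and 10 of the 290 auxin-treated cells 98.3%. Over all UMIs, Klf4 was found in 7.01% of control cells of replicate 2 and in 3.79% after auxin. In wells that failed the cell filter it was found in 4 of 47 wells in replicate 1, 1 of 107 in replicate 2 and 1 of 23 in replicate 3, at a median of 324, 625 and 6354 UMIs, and the part of stray transcripts in the low values of replicate 2 was not tested.

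**Figure D4:**
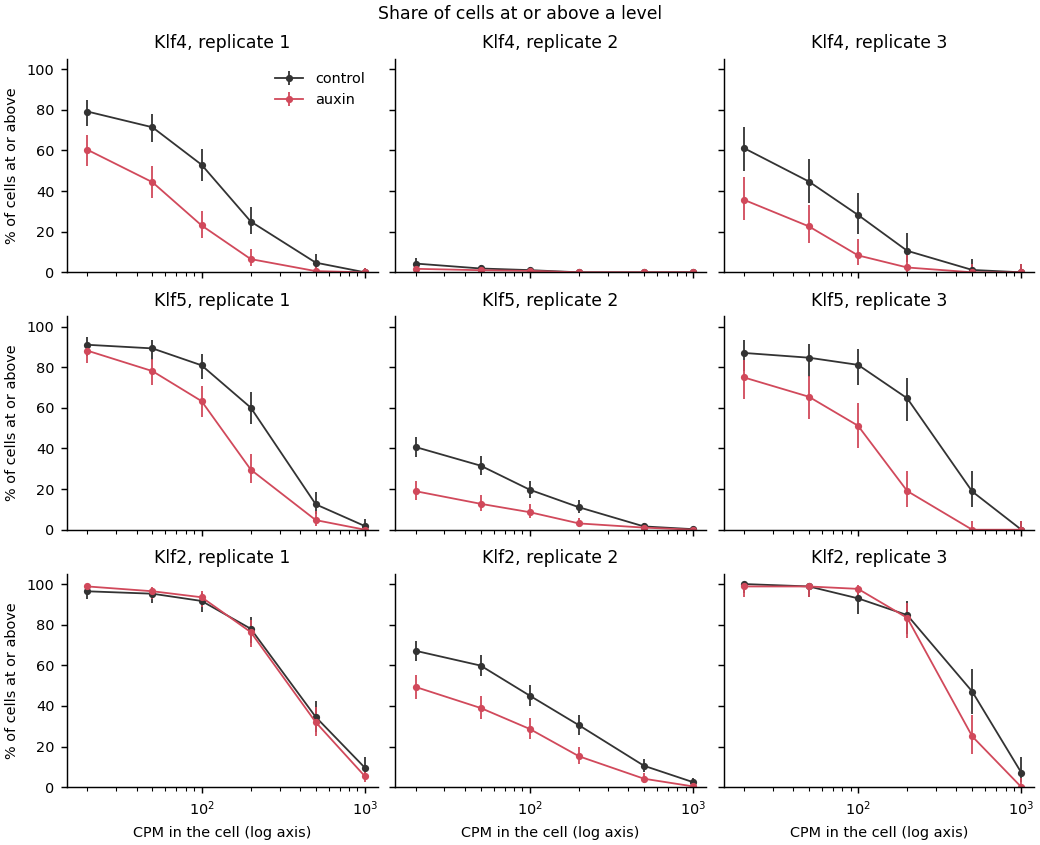
Percent of cells at or above a level of Klf4, Klf5 and Klf2 (rows) in each replicate (columns), with the CPM in the cell on a log axis and 95% exact binomial intervals as bars. For Klf5 the auxin curve runs below the control curve in all replicates, with 29.6% against 60.1% of cells at 200 CPM in replicate 1, while for Klf2 both curves run close together in replicate 1.

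Within a condition the members were only weakly related from cell to cell. Klf4 and Klf5 had a Spearman correlation of CPM per cell of 0.19, 0.27 and 0.11 in the control cells of replicates 1, 2 and 3 (168, 371 and 85 cells) and of 0.05, -0.02 and 0.11 after auxin. The 95th percentile of the correlations of Klf4 with all genes that had enough counts was 0.13, 0.11 and 0.20 in the same control cells, so the pair lay above it in replicates 1 and 2. In replicate 2 only 26 of 371 control cells and 11 of 290 auxin-treated cells held Klf4, so the values of Klf4 there rest on few cells. Higher values were found in control cells of replicate 2 for Klf2 with Klf9 (0.34), Klf3 (0.34) and Klf5 (0.34), where the 95th percentile for Klf2 was 0.20. In control cells of replicates 1 and 3 these 3 pairs had values between -0.16 and 0.24, and after auxin values between -0.11 and 0.21 over all replicates, the highest being Klf2 with Klf3 in replicate 1. All values come from the cells of 1 library set each and share their depth, and correlations this weak in sparse counts are given as a description. The cell cycle phase, assigned by cyclone, differed between conditions, with 62 G1 cells in control and 28 after auxin in replicate 1 but 24 and 62 in replicate 2. Of the 8 combinations of replicate and phase with at least 10 cells in either condition, Klf5 was lower after auxin in 8, Klf4 and Klf2 in 7, Klf3 and Klf9 in 6 and Klf13 in 5. Klf4 was not lower in G2/M cells of replicate 2, at 1.08 CPM in control and 1.81 after auxin. Klf6 was lower in 2 of the 8 combinations and Klf10 in 3.

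The likeness between genes was measured over the 14 plates with a settled condition, as the Pearson correlation of log2 CPM centred within each replicate, among 8712 genes with at least 10 CPM on average. Klf5 was among the 5 genes closest to Klf4, with a correlation of 0.89, and Klf4 among the 5 closest to Klf5. The others were Gm2000 (0.91), Zbed5 (0.91), Atg14 (0.90) and Gm8430 (0.89) for Klf4. For Klf5 they were Eif2s2 (0.92), Prdm14 (0.90), Gm32647 (0.90) and Pot1b (0.89). The plates share the contrast on which the pair was picked, so these values only describe the pattern. Of the members, Klf9 came next with 0.77 to Klf4 and 0.80 to Klf5, while Klf6 had -0.20 and -0.31.

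The family beyond the 8 members was mostly measured at lower levels. Sp2 was the highest, at 43.3, 30.5 and 60.7 CPM in control cells, within the range of the members. Of 18 further Klf and Sp genes, 13 could be tested, and 0 were called by edgeR with or without the block or, among the 7 to which it gave an adjusted p, by DESeq2 with the block (0 at an unadjusted p under 0.05 without and 1 with the block in edgeR, where 5.92% of all genes tested had such a p). Their median log2 fold change with the block was -0.11, against 0.00 for all genes tested. Klf1, an erythroid factor, was at 5.05, 2.51 and 4.78 CPM in control and 0.520, 2.34 and 2.24 CPM after auxin, a log2 fold change of -1.41 (SE 0.74) without the block and no adjusted p from DESeq2. Klf15 had -0.62 (SE 0.80) and Klf11 -0.57 (SE 0.47) without the block. With the block Klf1, Klf15 and Klf11 had -1.38 (SE 0.64), -0.39 (SE 0.36) and -0.53 (SE 0.31). Klf14, Klf17, Sp7, Sp8 and Sp9 did not pass edgeR's filter, which asks for a minimum count in at least 3 of the 6 sums, and were not tested.

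Klf4 is known as a target of LIF and STAT3, and of 12 genes of this pathway 0 were called by edgeR in either fit or, among the 11 to which it gave an adjusted p, by DESeq2 with the block (0 without and 2 with the block at an unadjusted p under 0.05 in edgeR, against 5.92% of all genes with the block). The median log2 fold change with the block was -0.05. Socs3, a direct STAT3 target that feeds back on the receptor, was at 39.5, 1.12 and 29.5 CPM in control and at 40.4, 1.76 and 23.9 CPM after auxin. The genes furthest from 0 without the block were Jak2, a kinase of cytokine receptors, at 0.81 (SE 0.67), Junb at -0.59 (SE 0.65) and Pim1 at -0.44 (SE 0.58). With the block Jak2, Junb and Pim1 had 0.76 (SE 0.45), -0.23 (SE 0.49) and -0.51 (SE 0.26). In replicate 2 Socs3 was low in both conditions. The 2 genes with such a p were Stat3 itself, at 33.5, 18.6 and 64.5 CPM in control and 43.7, 21.4 and 82.7 CPM after auxin, and Pim3, at 79.7, 37.1 and 82.3 CPM in control and 70.9, 32.1 and 51.6 CPM after auxin.

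Of 12 pluripotency genes, 11 could be tested, and edgeR called 0 in either fit (0 at an unadjusted p under 0.05 without and 4 with the block, against 5.92% of all genes). DESeq2 with the block called Prdm14 as lower, a factor that keeps the naive state. Prdm14 was at 109, 5.34 and 116 CPM in control and at 59.2, 2.00 and 69.8 CPM after auxin, with a log2 fold change of -0.99 (SE 0.16) and an adjusted p of 0.224 from edgeR with the block and 2.3e-05 from DESeq2 with the block. Dppa3 had -0.65 (SE 0.50) and Tbx3 -0.46 (SE 1.59) without the block, and -0.60 (SE 0.23) and -0.30 (SE 0.16) with it. The median of the list was -0.30 with the block and -0.07 without it. Nanog was at 496, 58.6 and 525 CPM in control and at 563, 38.9 and 495 CPM after auxin. Esrrb, a nuclear receptor of the naive state, was at 66.8, 17.7 and 125 CPM in control and at 61.7, 6.78 and 84.2 CPM after auxin. Its log2 fold change was -0.69 (SE 0.22) with the block and its adjusted p from edgeR 0.739. Pou5f1 had -0.37 (SE 0.12) with the block, at an adjusted p of 0.763 from edgeR, and its level, with the limit on its counting given above, was lower in all 3 replicates, as were those of Esrrb and Prdm14.

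The genes around the members were not called. Within 500 kb of the starts of the 8 members, 60 genes were tested, and edgeR called 0 with or without the block, as did DESeq2 with the block for the 29 to which it gave an adjusted p (in edgeR 0 without and 4 with the block at an unadjusted p under 0.05, against 5.92% of all genes). No gene tested starts upstream of Klf4 within this distance, and downstream the nearest gene was Gm12510 at 66.7 kb, with a log2 fold change of -0.23 (SE 0.52) in the blocked fit. Rad23b, 182 kb downstream of Klf4, was at 104, 68.2 and 83.1 CPM in control and 117, 73.3 and 82.1 CPM after auxin. Near Klf5 the nearest gene was Dis3, 199 kb upstream, with -0.29 (SE 0.11). The nearest genes of Klf2 were Gm10282 (-0.38, 13.8 kb upstream) and Eps15l1 (0.14, 102 kb downstream). For Klf9 they were 2410080I02Rik (-0.33, 6.33 kb upstream) and Smc5 (-0.22, 133 kb downstream), in each case as the log2 fold change of the blocked fit. The start of Gm20033 lies 0.729 kb inside Klf3 on the other strand. It had 176 UMIs in all sums, against 4521 of Klf3 in the control cells of replicate 2 alone. On the same strand Klf3 overlaps with C230096K16Rik (41 UMIs). Klf9 overlaps with Mir1192 (4 UMIs), and Klf13 with Gm27252 (7 UMIs) and E030018B13Rik (1 UMI). The strand setting of the counting is not given in the sources used here, so reads in these overlaps cannot be told apart.

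The sequences upstream of 2 members are shown because they hold the DNA boxes that the family itself binds, for the member with the lowest mean ratio and the one with the highest. They are the RefSeq bases before the annotated start, GRCm38.p6, written 5′ to 3′ along the gene, with matches to the GC box GGGCGG on either strand in capitals. Neither stretch holds CACCC or the STAT motif TTCNNNGAA on either strand.
Klf4, chr4:55532476-55532725, minus strand: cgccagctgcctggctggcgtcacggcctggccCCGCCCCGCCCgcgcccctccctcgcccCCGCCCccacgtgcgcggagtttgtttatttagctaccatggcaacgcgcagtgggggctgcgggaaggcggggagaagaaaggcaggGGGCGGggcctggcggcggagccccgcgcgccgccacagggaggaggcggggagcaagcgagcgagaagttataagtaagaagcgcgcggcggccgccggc
Klf6, chr13:5861239-5861481, plus strand: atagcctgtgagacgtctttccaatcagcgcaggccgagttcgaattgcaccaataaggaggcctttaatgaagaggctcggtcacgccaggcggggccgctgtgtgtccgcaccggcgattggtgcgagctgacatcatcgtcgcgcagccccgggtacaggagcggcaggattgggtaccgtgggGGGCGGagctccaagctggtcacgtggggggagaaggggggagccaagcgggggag
The stretch of Klf4 has 4 GC boxes, of which the first 2 overlap, and 74.0% G and C. That of Klf6 has 1 GC box and 64.2% G and C. Among 27025 mouse promoters, 32.9% hold a GC box in the 250 bases before the start, 51.3% a CACCC box and 7.18% the STAT motif. The table held 6 of the 8 members, and of these Klf3, Klf9 and Klf13 have a CACCC box in the bases used and Klf9 the STAT motif. GC boxes were found upstream of Klf2 (2) and Klf4 (4). They were also found upstream of Klf3 (5 in 117 bases), Klf6 (1) and Klf13 (3), whose ratios were small, and Klf9 had 0.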

How the data were processed

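Smart-SCRB data of 3 replicates were used. The authors aligned reads to mm10 and deposited UMI counts per gene and well, with the percent of counts from ERCC spike-ins and the detected genes per well. They also deposited the fraction of reads per plate that were copies of an already counted UMI, here 0.283 to 0.579. The aligner, the counting program and its annotation are not given in the sources used here. The members and gene lists were chosen with earlier results of these data known.

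Wells with more than 2600 detected genes were kept, and conditions came from the deposited annotation. Counts were summed per plate, and per replicate and condition (6064936 to 13572646 UMIs per plate), and divided by the UMI total for CPM. Genes were tested with edgeR 4.0.16 (R 4.3.3, quasi-likelihood test, TMM, adjusted p by Benjamini-Hochberg, limit 0.05) with condition as the only term, and with DESeq2 1.42.0 and the replicate block as alternatives. The numbers pair the samples, since the deviations of control and auxin sums correlated by 0.86, 0.81 and 0.64. On simulated sums with 200 changed genes the block found 61.5% of them, with 11 unchanged genes, and the fit without it 0. These sums were drawn from a fit with a replicate term, so the gain of the block was built in. It says nothing on which fit suits the real sums. Shares at equal depth are exact expectations of a draw without replacement. Phases came from scran 1.30.0. Genes were named by a fixed rule: all members, up to 3 genes per list with the largest fold change and those called, the nearest neighbours, and the 5 genes most like Klf4 and Klf5. Socs3, Stat3, Pim3, Nanog, Esrrb, Pou5f1, Sox2, Utf1, Dppa5a, Dcn, Sp2 and Rad23b were named after their values were seen. Gene positions are from GENCODE for mm10, which held 99.6% of identifiers. The labels do not say whether the replicates are separate cultures, while the study describes its sequencing replicates as biological. P-values measure the spread between these samples.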

Additional observations from a re-analysis of the deposited data

Results flagged for a closer look

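Klf4 on auxin plate 2 of replicate 2 stood far from the other 3 auxin plates of that replicate. It was at 3.65 CPM, from 46 UMIs in 4 of 72 cells, while the others were between 0.0831 and 0.589 CPM. The gap was 0.858 of the whole range, above Dixon's critical value for 4 plates at the 95% level. Of 16 groups of plates checked (8 members, control and auxin plates of replicate 2) this was the 1 group with such a plate, and chance gives about 1 in 20. The cell with most Klf4 on the plate held 27 UMIs. Klf5 was also highest on this plate among the auxin plates, at 39.0 CPM.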

How the results depend on the processing

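Fits without the block called 0 genes and 0 members under all alternatives run. With the replicate block edgeR called 3 genes, DESeq2 57, and edgeR with the disputed plates by annotation 3, each with 2 members. With these plates by the source values it called 0. With the block, leaving out replicate 1, 2 or 3 left 14, 32 and 2 genes and 1, 2 and 0 members. The mean log2 ratio of Klf4 was -1.08 per ERCC count, -1.09 as a mean of CPM per cell, -1.56 over phases, -1.84 without auxin plate 2 of replicate 2 (chosen after seeing the data) and -0.80 with the disputed plates by the source values. For Klf5 that placement gave -0.81. The change of the share of positive cells became -8.41 points for Klf4 and -8.25 for Klf5, since replicate 3 then had 43.1% and 41.6% of cells with Klf4 and 77.0% and 80.4% with Klf5 in control and after auxin. ERCC scaling moved all genes up by 0.17 on the log2 scale and turned the signs of Klf3 (0.02), Klf10 (0.11) and Klf13 (0.14). Klf10 also turned with the disputed plates by annotation (0.10) and without replicate 3 (0.09), and Klf13 without replicate 2 (0.19). Leaving out 1 replicate gave between -1.32 and -1.18 for Klf4 and between -1.36 and -1.12 for Klf5. Klf2, Klf4, Klf5, Klf6 and Klf9 kept their sign in all 12 alternatives of the ratio. The cause of these shifts was not tested. Klf4 in replicate 2 rests on 135 and 59 UMIs, which limits its ratio and shares there.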

Other observations

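The 2 plates of replicate 3 with a disputed condition entered no comparison of the main results and were placed only in the alternatives. The plate annotated as control had 91 cells, with Klf4 at 71.9 CPM, Klf5 at 282 CPM and Klf2 at 424 CPM. The plate annotated as auxin had 77 cells, with Klf4 at 33.3 CPM, Klf5 at 115 CPM and Klf2 at 455 CPM. Klf6 was at 42.0 CPM on both plates, and Klf10 at 67.9 and 99.8 CPM.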
